A study of Mus musculus with 6 samples.

Results

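The classical cadherins described here are 10 genes of mouse cortex, chosen by gene symbol: *Cdh2*, *Cdh4*, *Cdh6*, *Cdh7*, *Cdh8*, *Cdh9*, *Cdh10*, *Cdh11*, *Cdh12* and *Cdh13*. They are 10 of the 21667 named genes measured, and all 10 had reads in every mouse and were tested. RNA came from the somatosensory cortex of 3 control (Mef2cfl/fl) and 3 *Mef2c* cKO male mice (strain, mixed SVeV-129; C57BL/6J), and polyA RNA was sequenced. Every mouse carried the floxed *Mef2c* gene on both alleles, and the *Mef2c* cKO mice also carried Cre recombinase knocked into 1 *Emx1* allele, which acts from embryonic life in the excitatory neurons and part of the glia of the forebrain and not in cortical interneurons. Replicate 1 of each genotype was 14 weeks old and replicates 2 and 3 were 12 weeks old. The comparison asks how the loss of *Mef2c*, a transcription factor of excitatory neurons, changed the RNA of the adult cortex.

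Cadherins are calcium-dependent adhesion proteins that bind cadherins on the neighbouring cell and, inside the cell, attach to actin through catenins. The type I cadherins bind broadly and hold cells and synapses together, whereas the type II cadherins are expressed in restricted sets of neurons, and their combinations are known for sorting neurons into layers and nuclei and for matching axons with target cells. *Cdh2* (N-cadherin) and *Cdh4* (R-cadherin) are type I, *Cdh6* to *Cdh12* are type II, and *Cdh13* (T-cadherin) has cadherin repeats but a lipid anchor in place of the tail that binds catenins.

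Values are given as CPM, the reads on a gene out of every 1000000 reads of the sample, from whole read counts recovered from the deposited RPKM. The samples held 19326365 to 54128334 reads, with the fewest in *Mef2c* cKO replicate 2. *Mef2c* itself was at 772 to 800 CPM in the controls and 1231 to 1468 CPM in the cKO mice. These reads are summed over the whole gene, so they do not show the loss of the floxed part and are no check of the genotype labels. *Emx1*, the gene that drives Cre, was at 16.5 to 20.3 CPM in the controls and 4.97 to 5.71 CPM in the cKO mice. Over the whole table, 1997 of 14625 tested genes, 13.7%, passed the cut-offs of an adjusted p-value under 0.05 (limma, Benjamini-Hochberg) and an absolute log2 fold change above 0.3, and the median log2 fold change of all tested genes was 0.0079. In the tissue, fewer cells of a type and less RNA per cell cannot be told apart. The paper compared cKO mice with control littermates, but nothing states which mice shared a litter, so litter was not in the fit. Nothing states either whether the mice of a genotype came from separate litters, so p-values measure only the spread between these mice.

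Of the 10 cadherins, 5 passed the cut-offs, against the 13.7% of all tested genes. *Cdh6*, *Cdh7* and *Cdh8*, all of type II, fell, where 7.77% of all tested genes did, and *Cdh9* (type II) and *Cdh4* (type I) rose, where 5.88% of all tested genes did. At an absolute log2 fold change above 1, which 3.23% of all tested genes passed, 2 of the 10 passed. The median log2 fold change of the 10 genes was -0.07. The largest changes were in *Cdh6*, which fell to 22.2% of its control level in CPM, and in *Cdh9*, which rose to 321% of it. In CPM, 6 of the 10 genes did not overlap between genotypes, and the share of all tested genes without overlap was 33.8%. With 1 mouse left out in turn, 6 to 7 of the 10 did not overlap, where the share of all tested genes was 43.5%, 43.5% and 41.6% without control replicates 1, 2 and 3 and 42%, 43.7% and 44% without *Mef2c* cKO replicates 1, 2 and 3. For a single gene, the exact permutation test over 3 mice against 3 (two-sided) cannot go below p = 0.1, and the 6 genes without overlap in all mice were at that value.

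**Figure D1:**
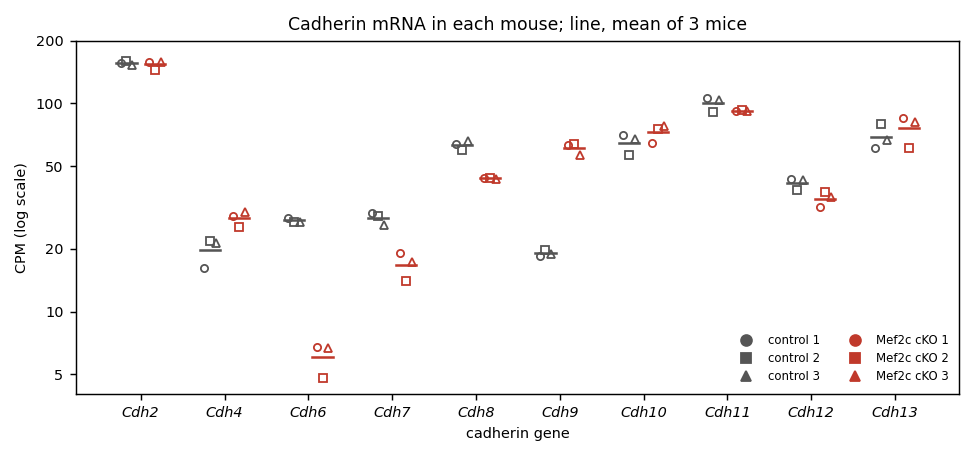
The plot shows the CPM of each of the 10 cadherins on a log axis, with 1 symbol per mouse, controls in grey, *Mef2c* cKO in red, and a line at the mean of 3 mice. *Cdh6* and *Cdh9* separate most, *Cdh7*, *Cdh8* and *Cdh4* separate by less, and *Cdh2* overlaps throughout.

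*Cdh6*, a type II cadherin used by subsets of cortical neurons and in the wiring of the visual system, was at 28.2, 27.0 and 26.9 CPM in control replicates 1, 2 and 3 and at 6.75, 4.81 and 6.67 CPM in the cKO mice. The control values lay close together, and the highest cKO value was far below them. The log2 fold change was -2.17 ± 0.13 (SE, n = 3 mice per genotype; adjusted p = 1.0e-05, limma). Only 50 of the 14625 tested genes had a lower log2 fold change. The smallest number of reads behind any value of *Cdh6* was 93, in *Mef2c* cKO replicate 2, the sample with the fewest reads.

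*Cdh7*, best known from migrating neural crest cells, was at 29.6, 28.7 and 26.0 CPM in the controls and 19.1, 14.1 and 17.3 CPM in the cKO mice. Its log2 fold change was -0.75 ± 0.12 (SE, n = 3 mice per genotype; adjusted p = 0.0020, limma). *Mef2c* cKO replicate 2 was the lowest mouse for *Cdh7* as it was for *Cdh6*. *Cdh8*, which marks subsets of cortical and thalamic neurons, was at 64.0, 59.6 and 65.6 CPM in the controls and 43.8, 43.8 and 43.5 CPM in the cKO mice. The 3 cKO values were nearly equal, and all lay below the lowest control. The log2 fold change of *Cdh8* was -0.53 ± 0.061 (SE, n = 3 mice per genotype; adjusted p = 4.0e-04, limma). Together these 3 type II cadherins summed to 118.5 ± 3.2 CPM in the controls and 66.6 ± 3.5 CPM in the cKO mice (SD, n = 3).

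*Cdh9*, a type II cadherin known from the synapses of dentate granule cells on hippocampal pyramidal neurons, was at 18.4, 19.8 and 19.0 CPM in the controls and 62.8, 63.9 and 56.6 CPM in the cKO mice. Every cKO mouse was above every control by a wide margin. The log2 fold change was 1.67 ± 0.073 (SE, n = 3 mice per genotype; adjusted p = 2.1e-06, limma), and 51 of the 14625 tested genes had a higher one. *Cdh4*, the closest relative of N-cadherin, was at 16.2, 21.9 and 21.3 CPM in the controls and 28.7, 25.4 and 30.0 CPM in the cKO mice. The groups did not overlap, but control replicate 1 was apart from the other controls. The log2 fold change of *Cdh4* was 0.51 ± 0.12 (SE, n = 3 mice per genotype; adjusted p = 0.022, limma). This call was lost without *Mef2c* cKO replicate 1 (log2 fold change 0.49, adjusted p = 0.066), without *Mef2c* cKO replicate 3 (0.46, adjusted p = 0.071) and without the variance trend (adjusted p = 0.056), while the other 4 calls held when any 1 mouse was left out.

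The other 5 cadherins did not pass. *Cdh2*, the main type I cadherin of neurons, was at 157, 160 and 153 CPM in the controls and 159, 144 and 159 CPM in the cKO mice. Its log2 fold change of -0.02 had a 95% interval of -0.16 to 0.11. The groups overlapped.

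*Cdh12*, a brain cadherin of type II, was at 43.3, 38.3 and 43.0 CPM in the controls and 31.6, 37.4 and 35.6 CPM in the cKO mice. The groups did not overlap, with control replicate 2 and *Mef2c* cKO replicate 2 next to each other. The log2 fold change was -0.25 (95% interval -0.44 to -0.06, adjusted p = 0.076, limma), which missed both cut-offs. *Cdh11*, found in neurons as well as in mesenchymal cells, had a log2 fold change of -0.12 (95% interval -0.28 to 0.04), and *Cdh10*, a type II cadherin of the brain, one of 0.17 (95% interval -0.06 to 0.40). *Cdh13* had 61.2, 79.3 and 66.5 CPM in the controls and 84.8, 61.2 and 81.7 CPM in the cKO mice. The spread of *Cdh13* within each genotype was larger than the difference between them, and *Mef2c* cKO replicate 2 and control replicate 1 were the lowest of the 6 mice.

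**Figure D2:**
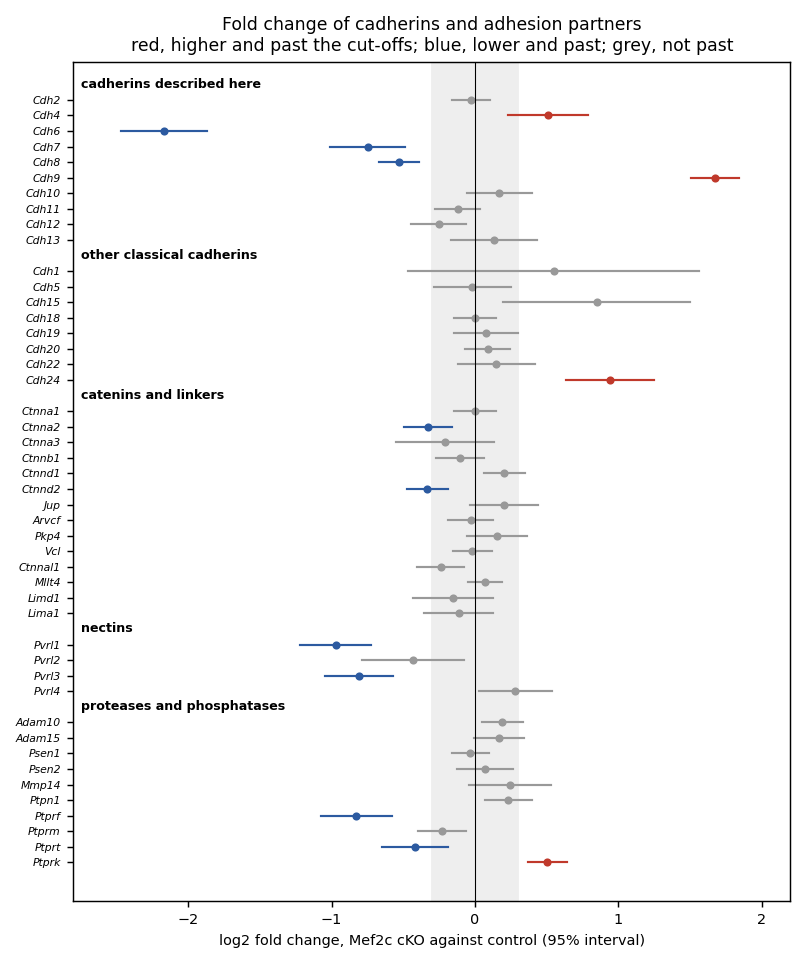
The plot shows the log2 fold change of the cadherins and of 4 lists of adhesion genes, *Mef2c* cKO against control, with the 95% interval of the limma fit and grey shading between -0.3 and 0.3. *Cdh6* at -2.17 and *Cdh9* at 1.67 lie farthest from 0 among the genes drawn.

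Levels of different genes were compared per length, as CPM per kilobase of exon in the mm9 annotation. The order and the shares depend on these lengths, from 2632 bases (*Cdh6*) to 11153 bases (*Cdh13*), which are not from the annotation of the authors. In the controls, *Cdh11* (23.8 ± 2.0 CPM per kb, SD, n = 3), *Cdh2* (19.4 ± 0.43) and *Cdh10* (18.2 ± 2.1) led. *Cdh6* was the fourth at 10.4 ± 0.28 CPM per kb, followed by *Cdh8* at 8.15 ± 0.40 CPM per kb. *Cdh12*, *Cdh9* and *Cdh13* lay between 6.19 and 7.37 CPM per kb, and *Cdh7* and *Cdh4* were lowest at 3.24 and 2.74 CPM per kb. In this order the neighbours *Cdh2* and *Cdh10*, *Cdh12* and *Cdh9*, *Cdh9* and *Cdh13*, and *Cdh7* and *Cdh4* overlapped between mice, and the other neighbours did not.

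In the cKO mice *Cdh9* was second, at 21.1 ± 1.4 CPM per kb (SD, n = 3), beside *Cdh11* at 21.8 ± 0.16, *Cdh10* at 20.5 ± 2.0 and *Cdh2* at 19.1 ± 1.1. These 4 genes overlapped each with the next in order. In CPM, without division by length, the cKO mean of *Cdh9* was 61.1, below *Cdh2* (153.8), *Cdh11* (92.1), *Cdh13* (75.9) and *Cdh10* (72.7). *Cdh6* was ninth at 2.31 ± 0.42 CPM per kb and overlapped with *Cdh7*, the lowest, at 1.94 ± 0.29 CPM per kb. The ratio of *Cdh9* to *Cdh6* per length was 0.594, 0.667 and 0.642 in the controls and 8.47, 12.1 and 7.73 in the cKO mice, so that their order was turned around in every cKO mouse.

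The sum of the 10 genes overlapped between genotypes. Per length it was 106 ± 3.4 CPM per kb in the controls and 109 ± 1.5 CPM per kb in the cKO mice (SD, n = 3; exact permutation p = 0.2, two-sided). *Cdh9* made up 5.87% to 6.69% of this sum in the controls and 17.7% to 20.5% in the cKO mice. *Cdh6* made up at least 9.53% in the controls, with a mean of 9.81%, and 1.69% to 2.35% in the cKO mice. *Cdh8* went from 7.54% to 7.90% in the controls to 5.06% to 5.25% in the cKO mice. *Cdh2* held 17.6% to 19.3% of the sum in the controls and 16.5% to 18.1% in the cKO mice.

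**Figure D3:**
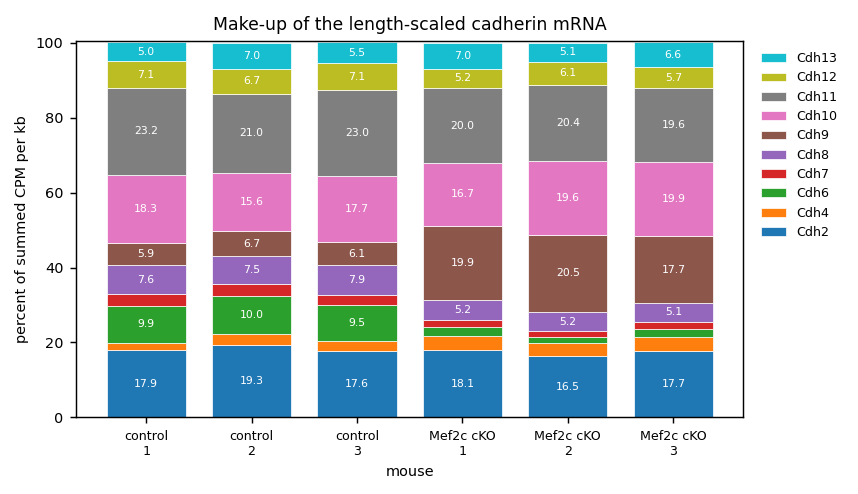
The bars show the percent of the summed CPM per kb that each of the 10 cadherins made up in each mouse, with 1 bar per mouse. The *Cdh9* share is at least 17.7% in the cKO mice and at most 6.69% in the controls, and the *Cdh6* share at most 2.35% and at least 9.53%.

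The genes with the largest fall and the largest rise are neighbours on chromosome 15 (mm9). *Cdh6* (12963955 to 13103394, minus strand) and *Cdh9* (16707856 to 16786522, plus strand) are separated by 3604461 bases in which the annotation has no other protein-coding gene. *Cdh10* (18748702 to 18943990, plus strand), *Cdh12* (21041207 to 21519288, plus strand) and *Cdh18* (22478777 to 23404173, plus strand) follow. Between *Cdh9* and *Cdh10* lie 1962179 bases without a protein-coding gene. Along this run of 5 type II cadherins the log2 fold changes were -2.17, 1.67, 0.17, -0.25 and 0.00, so that the 2 genes that passed have opposite signs and the following 3 did not pass. *Cdh8* and *Cdh11* are on chromosome 8 (101548371 to 101940371 and 105156895 to 105309011, both on the minus strand), and *Cdh7* is on chromosome 1 (111878904 to 112036734, plus strand). *Cdh4* is on chromosome 2 (179177136 to 179634078, plus strand). Exons of *Cdh8* overlap an opposite-strand transcript by 23 bases and those of *Cdh4* another gene model by 31 bases, and the exons of the other 8 genes overlap no other gene model.

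Promoters of 6 of the 10 genes were in the RefSeq table (GRCm38.p6), with 250 bases before the transcription start and 50 from the start on. When all pairs of these promoters were compared, the longest identical run was 15 bases and was shared by *Cdh6* and *Cdh9*. The next longest between any other pair was 13 bases. No other gene among the 32851 promoters of the table held the run on either strand. Most runs of 15 bases are rare in promoters of this number and length, so the absence elsewhere says little about this pair. It begins 18 bases before the start of *Cdh6* and 209 bases before that of *Cdh9*. Both promoters are printed because these are the genes with the largest opposite changes, and the capitals mark the shared run. The RefSeq starts were not matched to the mm9 gene models used for positions and lengths. That of *Cdh9* may lie upstream of its mm9 model. That of *Cdh6* is chr15:13173626-13173925 on the minus strand and that of *Cdh9* is chr15:16728665-16728964 on the plus strand.
Cdh6: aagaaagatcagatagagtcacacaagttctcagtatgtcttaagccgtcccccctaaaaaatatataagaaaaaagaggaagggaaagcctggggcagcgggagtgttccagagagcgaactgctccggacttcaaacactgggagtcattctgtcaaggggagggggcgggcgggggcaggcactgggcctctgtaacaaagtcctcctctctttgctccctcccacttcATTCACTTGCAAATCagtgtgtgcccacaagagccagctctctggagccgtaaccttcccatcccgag
Cdh9: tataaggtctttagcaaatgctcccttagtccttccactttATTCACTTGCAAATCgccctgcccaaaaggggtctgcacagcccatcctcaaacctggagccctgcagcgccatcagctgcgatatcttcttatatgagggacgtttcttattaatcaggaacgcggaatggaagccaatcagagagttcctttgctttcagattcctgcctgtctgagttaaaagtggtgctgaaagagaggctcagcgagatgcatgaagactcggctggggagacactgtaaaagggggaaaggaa

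The binding element of the MEF2 factors was searched in the same promoters on both strands. It was found in 1 of the 8 promoters of the 6 genes, that of *Cdh10* (chr15:18820079-18820378, plus strand), and in 3.19% of all 32851 promoters. The sequence is printed with the element in capitals, for comparison with those of *Cdh6* and *Cdh9*. It begins 124 bases before the start. *Cdh10* itself did not pass the cut-offs.
Cdh10: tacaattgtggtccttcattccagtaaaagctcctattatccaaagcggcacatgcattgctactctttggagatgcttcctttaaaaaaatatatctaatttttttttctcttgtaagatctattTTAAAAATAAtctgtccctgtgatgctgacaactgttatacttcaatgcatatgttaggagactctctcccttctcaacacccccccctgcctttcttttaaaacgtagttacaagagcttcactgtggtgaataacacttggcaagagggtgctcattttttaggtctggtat

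Other genes of cadherin adhesion were read from 4 lists. Among 10 other classical cadherins 8 were tested, and 1, *Cdh24*, passed, a share of 12.5% beside the 13.7% of all tested genes. *Cdh24*, a type II cadherin, was at 10.5, 15.1 and 14.4 CPM in the controls and 27.6, 24.6 and 24.2 CPM in the cKO mice. Its log2 fold change was 0.94 ± 0.14 (SE, n = 3 mice per genotype; adjusted p = 0.0013, limma). *Cdh18* and *Cdh20*, further type II cadherins of the brain, had log2 fold changes of 0.00 (95% interval -0.14 to 0.15) and 0.09 (95% interval -0.07 to 0.25). *Cdh5*, the cadherin of endothelial cells, had a log2 fold change of -0.02 (95% interval -0.29 to 0.25). *Cdh3* and *Cdh26* were too low to be tested.

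Of 14 catenins and linkers to actin, 2 passed, 14.3% beside the 13.7% of all tested genes, and both were lower in the cKO mice. *Ctnna2*, the alpha-catenin of neurons, was at 171, 191 and 206 CPM in the controls and 146, 158 and 148 CPM in the cKO mice. Its log2 fold change was -0.33 ± 0.075 (SE, n = 3 mice per genotype; adjusted p = 0.017, limma). *Ctnnd2*, the delta-catenin of neurons, was at 285, 325 and 312 CPM in the controls and 240, 240 and 253 CPM in the cKO mice. Its log2 fold change was -0.33 ± 0.063 (SE, n = 3 mice per genotype; adjusted p = 0.0061, limma). Both are close to the fold cut-off. *Ctnna2* was lost without control replicate 2 (adjusted p = 0.058), control replicate 3 (0.053), *Mef2c* cKO replicate 1 (0.056) or *Mef2c* cKO replicate 3 (0.051) and without the variance trend (0.059), and *Ctnnd2* fell under the fold cut-off without control replicate 2 (log2 fold change -0.29). *Ctnnb1*, beta-catenin, had a log2 fold change of -0.10 (95% interval -0.27 to 0.06), and *Ctnna1*, the alpha-catenin of other cells, one of 0.00 (95% interval -0.15 to 0.15). The median of the list was -0.07.

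Nectins are immunoglobulin-like adhesion proteins that lie beside cadherins at junctions. Of the 4 nectins 2 passed, both lower in the cKO mice, a share of 50% beside the 13.7% of all tested genes. *Pvrl1* (nectin-1) was at 60.3, 54.5 and 47.0 CPM in the controls and 26.5, 24.8 and 31.0 CPM in the cKO mice, at a log2 fold change of -0.97 ± 0.11 (SE, n = 3 mice per genotype; adjusted p = 3.4e-04, limma). *Pvrl3* (nectin-3), the preferred partner of nectin-1 across the junction, was at 33.8, 34.7 and 32.3 CPM in the controls and 16.7, 19.0 and 22.3 CPM in the cKO mice, at a log2 fold change of -0.81 ± 0.11 (SE, n = 3 mice per genotype; adjusted p = 7.8e-04, limma). None of the 4 nectins overlapped between genotypes in CPM, and the share of all tested genes without overlap was 33.8%. The other nectins, *Pvrl2* and *Pvrl4*, had log2 fold changes of -0.43 (adjusted p = 0.10, limma) and 0.28 (adjusted p = 0.13, limma).

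Among 10 proteases and phosphatases that act on cadherins, 3 passed, all of them receptor phosphatases. *Ptprf* (LAR), a receptor phosphatase of axons and synapses, was at 73.3, 78.5 and 82.5 CPM in the controls and 49.1, 36.4 and 47.5 CPM in the cKO mice, at a log2 fold change of -0.83 ± 0.11 (SE, n = 3 mice per genotype; adjusted p = 8.7e-04, limma). *Ptprk*, a homophilic receptor phosphatase, was at 92.2, 85.6 and 92.7 CPM in the controls and 122, 133 and 129 CPM in the cKO mice, at a log2 fold change of 0.50 ± 0.060 (SE, n = 3 mice per genotype; adjusted p = 4.7e-04, limma). *Ptprt*, of the same subfamily as *Ptprk*, had a log2 fold change of -0.42 ± 0.10 (SE, n = 3 mice per genotype; adjusted p = 0.022, limma). The call of *Ptprt* was lost without control replicate 2 or 3 or *Mef2c* cKO replicate 2 or 3, with an adjusted p of 0.070 to 0.076, with the replicate number as a block (0.063) and without the variance trend (0.069). *Adam10*, the main protease that sheds N-cadherin, had a log2 fold change of 0.19 (95% interval 0.05 to 0.33) and did not pass. Over the 4 lists, 8 of 36 tested genes, 22.2%, passed, 2 higher and 6 lower, beside 13.7% of all tested genes, 5.88% higher and 7.77% lower, and the median log2 fold change was 0.00.

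For each cadherin that passed, the 3 genes with the most similar profile over the 6 mice were found among the 14624 other tested genes, by the root mean square (RMS) difference of log2(CPM + 0.1) after subtraction of the control mean. For *Cdh9* these were *Onecut2* (0.067), *Cbln1* (0.131) and *Blnk* (0.138). *Onecut2*, a homeodomain transcription factor, was at 4.12, 4.88 and 4.09 CPM in the controls and 13.8, 15.4 and 13.1 CPM in the cKO mice. *Cbln1*, a secreted synaptic organizer, was at 9.85, 10.9 and 9.37 CPM in the controls and 34.6, 27.8 and 32.2 CPM in the cKO mice. For *Cdh6* they were *Shisa3* (0.070), *Il12a* (0.126) and *Exph5* (0.131). *Exph5*, a Rab effector, was at 48.3, 43.3 and 40.2 CPM in the controls and 9.25, 8.74 and 10.3 CPM in the cKO mice, whereas *Shisa3* and *Il12a* were low genes, at 0.790 CPM or less and 3.03 CPM or less. For *Cdh7* they were *Plxnc1* (0.056), *Synj2* (0.065) and *Plppr3* (0.073), for *Cdh8* they included *Ablim3* (0.019) and *Map3k9* (0.043), and for *Cdh4* they were *Mlph* (0.062), *Ccdc108* (0.070) and *Plod2* (0.079). *Plxnc1*, a semaphorin receptor, was at 65.5, 68.8 and 56.5 CPM in the controls and 44.4, 33.3 and 40.3 CPM in the cKO mice.

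**Figure D4:**
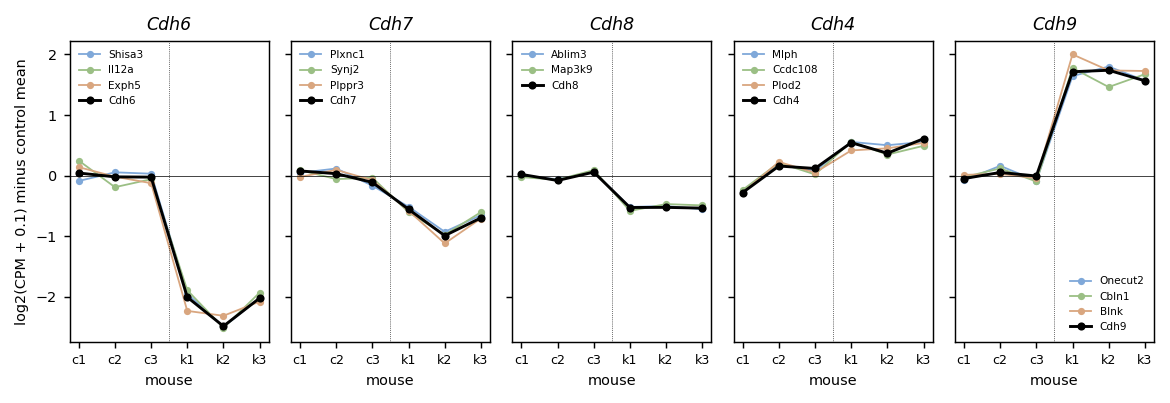
The panels show log2(CPM + 0.1) minus the control mean over the 6 mice (c1 to c3, controls; k1 to k3, *Mef2c* cKO), with the cadherin in black and its nearest genes in colour, 3 for each cadherin except *Cdh8*, which has 2. The lines join the values of a gene and carry no order of the mice.

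Marker lists of cell types and neighbouring regions were read beside the cadherins. Of all tested genes 13.7% passed the cut-offs, 5.88% higher and 7.77% lower, and the counts of each list stand beside these shares. Of 8 upper-layer markers 6 fell and 1 rose in the cKO mice, and their summed level was 652 to 716 CPM in the controls and 421 to 448 CPM in the cKO mice. The marker that rose, *Mdga1*, went from 10.3 to 13.2 CPM in the controls to 71.2 to 88.7 CPM in the cKO mice. *Lmo4* did not pass (log2 fold change 0.03). *Cux2*, the defining marker, went from 89.5 to 100.3 CPM in the controls to 26.4 to 31.4 CPM in the cKO mice, and *Rorb*, of the thalamus-recipient layer, from 25.4 to 27.0 CPM to 6.99 to 8.49 CPM. These falls stand beside those of *Cdh6*, *Cdh7* and *Cdh8*, and their part in them was not tested. Of 8 markers of pyramidal neurons 4 rose and 1, *Emx1*, fell, with summed levels of 5714 to 6825 CPM in the controls and 5946 to 7025 CPM in the cKO mice. Of 9 deep-layer markers 1 rose and 2 fell.

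Of 8 hippocampal markers 7 were tested, of which 3 rose and 1 fell, beside the 13.7% of all tested genes that passed. The sum of the list was 73.7 to 86.6 CPM in the controls and 141 to 259 CPM in the cKO mice. *Wfs1*, which most of this sum is, was at 53.8 to 66.6 CPM in the controls and 96.7 to 195 CPM in the cKO mice, while *Prox1*, the defining marker of dentate granule cells, was at 6.68 to 9.89 CPM and 7.66 to 11.3 CPM. *Fibcd1* (log2 fold change 2.27) and *Tdo2* (3.36) rose by more than *Wfs1* (1.19), and *C1ql2* fell (-1.40). *Fibcd1* went from 5.70 to 8.20 CPM in the controls to 29.0 to 42.5 CPM in the cKO mice, *Tdo2* from 0.263 to 0.470 CPM to 4.06 to 6.10 CPM, and *C1ql2* from 2.61 to 3.59 CPM to 0.855 to 1.48 CPM. These values stand beside the rise of *Cdh9*, and their part in it was not tested. Of 7 thalamic markers 1 rose and 2 fell, with sums of 126 to 160 CPM in the controls and 89.8 to 95.7 CPM in the cKO mice. The striatal marker *Adora2a*, named after its values were seen, was at 5.14 to 9.56 CPM in the controls. It was at 20.3, 1.35 and 14.1 CPM in *Mef2c* cKO replicates 1, 2 and 3. Without *Mef2c* cKO replicate 2 the same number of cadherins, 5, passed. The cKO mice left were both above every control for *Adora2a*, so this does not even out striatal RNA between genotypes. Its part in the cadherin changes was not tested.

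Of the other lists, 1 of 8 interneuron markers rose (*Sst*) and 1 fell (*Pvalb*), and 2 of 8 astrocyte markers rose and 1 fell. Of 8 oligodendrocyte markers 1, *Mobp*, rose and none fell, with 7 at an unadjusted p under 0.05 and 2 past by voom, and all 8 log2 fold changes were above 0, with a median of 0.49. Their sum was 3149 to 5206 CPM in the controls and 5109 to 6549 CPM in the cKO mice. Higher levels were called for 2 of 6 markers of oligodendrocyte precursors, *Olig1* and *Olig2*, with 4 at an unadjusted p under 0.05. *Pdgfra* (log2 fold change -0.04), *Cspg4* (0.10), *Gpr17* (0.23) and *Neu4* (0.36) did not pass. Of 8 mural and meningeal markers 1 was called higher, with 3 at an unadjusted p under 0.05, and no lower ones were called in either list. No marker of microglia or endothelium, 7 each, passed in limma, with 3 and 1 at an unadjusted p under 0.05 and 0 in either list by voom. Of 7 striatal markers tested, 1 rose. The shares called of the oligodendrocyte (12.5%), mural and meningeal (12.5%) and striatal (14.3%) lists were near the 13.7% of all tested genes. No list had a marker at 0 in all mice.

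In the deposited RPKM, a gene was divided by lengths that differed between files. The control values of a cadherin spread 1.65-fold (*Cdh6*) to 180-fold (*Cdh11*) in RPKM and 1.04-fold to 1.36-fold in CPM. The RPKM of *Cdh9* were 0.193, 12.1 and 0.334 in the controls and 19.8, 7.33 and 29.8 in the cKO mice, a 62.8-fold spread between controls, against a 1.07-fold spread of its CPM. *Cdh6* did not overlap between genotypes in RPKM either, at 6.91, 4.84 and 7.99 in the controls and 2.23, 0.489 and 0.171 in the cKO mice, and neither did *Cdh13*, and the share of all tested genes without overlap in RPKM was 9.47%. By the deposited RPKM, 0 of the 9 cadherins tested passed (limma), with 2 at an unadjusted p under 0.05.

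**Figure D5:**
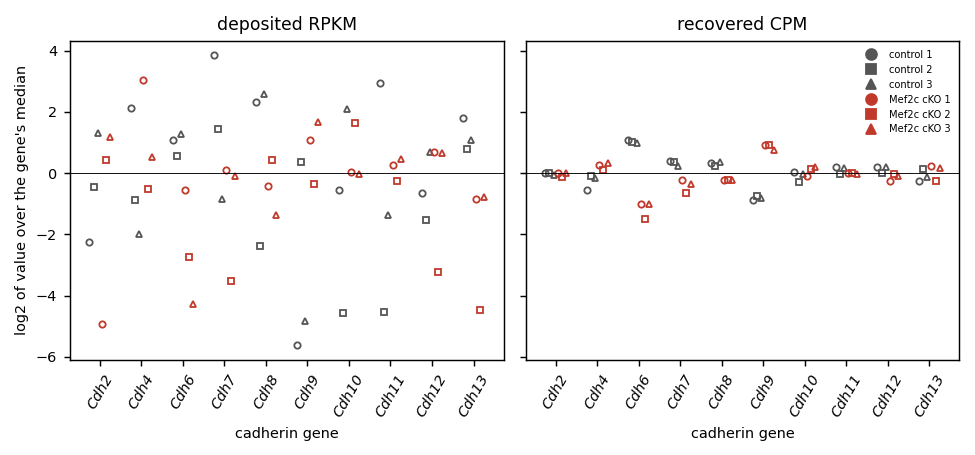
The panels show, for each cadherin and mouse, the log2 of the value over the median of that gene, from the deposited RPKM on the left and from the recovered CPM on the right, on the same axis. The control values of a gene spread 1.65-fold to 180-fold on the left and at most 1.36-fold on the right.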

How the data were processed

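The authors aligned polyA RNA-Seq reads to mm9 (TopHat, Bowtie), took gene counts from HTSeq with the UCSC annotation, and deposited RPKM values, 1 table of 21759 rows per mouse. Lengths behind the RPKM were found to repeat down the rows in the order of the Entrez gene numbers, so that whole read counts could be recovered from the deposited RPKM. The 6 totals followed from the value of 1 read, 99.69% to 99.85% of the values above 0 in each file were given a count, and these counts made up at least 99.99% of the reads of each file. Rows without a gene name (92, at most 0.085% of reads) were not tested. In 6 simulated tables all totals were found and 100% of the recovered counts were right. These tables were built from the recovered counts with the same row order and repeat periods. They test the search and cannot show that this structure holds for the deposited files. This recovery was chosen after seeing the data.

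Counts were divided by the recovered total (CPM), and log2(CPM + 0.1) was compared with limma 3.58.1 in R 4.3.3 (lmFit, eBayes with a variance trend; Benjamini-Hochberg over all 14625 tested genes). Genes entered with a CPM above 0.5 in every mouse of at least 1 genotype and with at least 2 counts in each genotype. A simulated comparison of 3 mice against 3 called 61 of 70 genes changed by 0.5 on the log2 scale, 59 of 59 changed by 1, 71 of 71 changed by 2 and 10 unchanged ones, among 14537 genes tested. Fold changes with a pseudocount understate the change of low genes, and CPM carry the counting error of the reads. The main test was not a count model, although whole counts had been recovered from the RPKM. With voom weights on these counts, 1 of the alternatives, 5 cadherins passed. Cadherins, adhesion lists and markers were chosen with earlier results of these data known. Named are all 10 cadherins, the list genes past the cut-offs with some that were not, chosen after their values were seen, and the 3 nearest profiles of each cadherin past the cut-offs, of which 1 for *Cdh8* is not reported here. Lengths and positions are those of the gencode mm9 annotation, not the annotation of the authors, and promoters are from RefSeq. The alternatives were other pseudocounts, filters, scalings and variance models, a replicate block, age, the deposited RPKM and each mouse left out. Python 3.11.15, numpy 2.4.6, pandas 2.3.3, scipy 1.17.1, numba 0.67.0 and matplotlib 3.10.9 were used.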

Additional observations from a re-analysis of the deposited data

How the results depend on the processing

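Under the deposited RPKM, whose lengths differ between files, 0 of 9 tested cadherins and 0 of 27 adhesion partners passed, with 2 of each at an unadjusted p under 0.05 (limma), and 14 of 7974 genes passed over the whole table, while 2 of the 10 cadherins and 9.47% of all tested genes did not overlap between genotypes. The signs of *Cdh11* (1.09), *Cdh13* (-3.12), *Ctnna2* (0.28), *Ctnnd2* (1.02), *Pvrl3* (1.17), *Ptprt* (0.32) and *Ptprk* (-1.94) reversed there on the log2 scale. With an absolute log2 fold change above 1, 2 cadherins (*Cdh6* and *Cdh9*) and 472 genes over the whole table passed.

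With 1 mouse left out in turn, 4 to 5 cadherins, 5 to 9 adhesion partners and 1657 to 1869 genes passed, and 6 to 7 cadherins did not overlap, where 41.6% to 44% of all tested genes did not. The 5 partners were left without control replicate 2. *Cdh2* went from -0.049 to 0.023 on the log2 scale, above 0 without *Mef2c* cKO replicate 2. *Cdh6*, *Cdh7*, *Cdh8* and *Cdh9* passed under every alternative on recovered counts other than the cut-off of 1, where *Cdh7* and *Cdh8* did not.

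With the replicate number as a block, 5 cadherins, 7 partners (without *Ptprt*, adjusted p = 0.063, limma) and 1695 genes passed. The numbers did not pair the mice, since deviations from the group means correlated at -0.176, -0.109 and -0.082 between mice of the same number over 14625 genes, and no mouse correlated best with its own number.

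Depth limits the low genes most. *Mef2c* cKO replicate 2 had the fewest reads, and without it *Ctnna2* and *Ctnnd2* still passed. Changes of about 0.3 on the log2 scale lay close to the cut-off and depended on single mice, as did the larger ones of *Cdh4* (0.51) and *Ptprt* (-0.42).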
